A study of Mus musculus with 19 samples.

Results

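The gene set holds 10 genes that epidermal keratinocytes use in the last steps of their life. Filaggrin (Flg), hornerin (Hrnr) and involucrin (Ivl) are envelope and granule proteins, and keratinocyte differentiation associated protein (Krtdap) is a secreted protein. Caspase-14 (Casp14) is a protease, and transglutaminase 1 (Tgm1) and transglutaminase 3 (Tgm3) are crosslinking enzymes. The others are the desquamation proteases kallikrein 5 (Klk5) and kallikrein 7 (Klk7), and corneodesmosin (Cdsn). The genes were taken by symbol, from a choice made with earlier results of these data known, and 9 of the 10 were found among the 18521 gene symbols of the count table. Flg was not analysed here. All 9 passed the filter on low counts, and the lowest count of any of them in any mouse was 261.

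Poly-A RNA of skin from 16 female mice was sequenced in 19 libraries. All mice carried the alleles Ptch1+/- K14-CreER2 p53fl/fl, so the healthy controls also lack 1 working copy of Ptch1, the Hedgehog receptor that restrains the pathway. The Cre recombinase is driven by the keratin 14 promoter and removes the floxed p53 gene in keratin 14 expressing cells after tamoxifen, so dermal, immune and other cells of the sample keep it. The vismodegib group (4 mice, 268 to 326 days old, 109 to 137 days after induction) had induced basal cell carcinoma (BCC) and 8 applications of vismodegib, a drug that blocks Smoothened. The ablative fractional laser (AFL) group (3 mice, 228 to 326 days old, 80 to 126 days after induction) had induced BCC and 1 laser treatment at 5% density and 40 mJ per microbeam. The BCC group (4 mice, 278 to 320 days old, 130 to 144 days after induction) was induced and not treated. Induction was 3 injections of 300 µg tamoxifen and 1 irradiation of 4 Gy. The healthy group (5 mice, 128 to 137 days old) was neither induced nor treated. The labels give day 4 as the harvest day for every sample, healthy skin included. No mice given a vehicle or a sham procedure are among the samples used here, and age and induction cannot be told apart.

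In the upper epidermis, keratinocytes stop dividing, fill with granules and die in a programmed way while proteins such as involucrin are crosslinked by transglutaminases into the cornified envelope that replaces the cell membrane. Caspase-14 takes part in the breakdown of filaggrin in the cornified layer. Corneodesmosin holds the dead cells together, and kallikreins cut it and other junction proteins so that the cells can be shed. Basal cell carcinoma is a tumour of keratinocytes driven by Hedgehog signalling, and its cells largely resemble basal and hair follicle cells.

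Promoter sequences are shown for 4 members, chosen for their roles: the envelope protein Ivl, the secreted protein Krtdap, the protease Casp14 and the crosslinking enzyme Tgm3. Each line gives the 250 bases before the RefSeq transcript start (build GRCm38.p6) on the strand of the gene, in lower case with motif matches in capitals. The windows are chr3:92573736-92573985 on the minus strand for Ivl, chr7:30787655-30787904 on the plus strand for Krtdap, chr10:78718294-78718543 on the minus strand for Casp14 and chr2:130012090-130012339 on the plus strand for Tgm3.
Ivl: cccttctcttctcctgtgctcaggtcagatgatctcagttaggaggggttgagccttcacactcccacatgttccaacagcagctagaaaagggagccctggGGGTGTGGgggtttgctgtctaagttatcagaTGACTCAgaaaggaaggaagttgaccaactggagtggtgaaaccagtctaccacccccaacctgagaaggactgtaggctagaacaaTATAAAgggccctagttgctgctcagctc
Krtdap: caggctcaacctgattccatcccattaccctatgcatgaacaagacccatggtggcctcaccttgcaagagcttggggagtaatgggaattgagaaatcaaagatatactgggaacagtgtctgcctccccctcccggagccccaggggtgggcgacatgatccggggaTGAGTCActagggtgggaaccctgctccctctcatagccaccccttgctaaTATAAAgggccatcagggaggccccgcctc
Casp14: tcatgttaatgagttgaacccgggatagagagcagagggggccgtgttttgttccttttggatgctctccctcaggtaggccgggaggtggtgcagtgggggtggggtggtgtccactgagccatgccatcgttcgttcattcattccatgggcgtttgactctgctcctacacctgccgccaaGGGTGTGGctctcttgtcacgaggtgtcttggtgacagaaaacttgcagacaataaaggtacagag
Tgm3: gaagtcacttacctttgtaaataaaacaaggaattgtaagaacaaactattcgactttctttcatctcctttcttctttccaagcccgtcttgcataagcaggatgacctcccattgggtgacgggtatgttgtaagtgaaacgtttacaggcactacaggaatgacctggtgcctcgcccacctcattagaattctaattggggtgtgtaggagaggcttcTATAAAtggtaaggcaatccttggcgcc
All 9 genes analysed had at least 1 window, and Tgm1 and Cdsn had 2. A gene was counted if any of its windows held the motif, while the background shares are of windows. The TATA motif (TATAAA) was found in 4 of the 9 genes (Hrnr, Ivl, Krtdap and Tgm3), against 12.4% of all 32851 promoter windows of this length. It began 31 bases before the start in Hrnr, 29 in Ivl, 30 in Krtdap and 28 in Tgm3. The AP-1 motif (TGAGTCA, named for the Jun and Fos factors) was found in Ivl and Krtdap, against 4.46% of windows. The KLF motif (CCACACCC) was found in Ivl and Casp14, against 3.2% of windows, in both on the opposite strand. The GRHL motif (AACCGGTT) was found in 0 of the 9 genes and 0.116% of windows, and the C/EBP motif (TTGCGCAA) in 0 of the 9 genes and 0.164% of windows. Tgm1, Klk5, Klk7 and Cdsn held none of these motifs, so the sequences shown all come from genes with a match. Both strands were searched and no matches overlapped. A match is a run of letters and was not tested as a binding site.

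Levels are given per mouse as CPM, counts scaled to TMM-adjusted library sizes. A gene was called higher or lower when edgeR's quasi-likelihood F test over all 15760 genes tested gave a Benjamini-Hochberg adjusted p under 0.05. Library totals lay between 27185921 and 33556611 counts. Trp53, the floxed gene, had 26.8, 53.2, 25.3 and 55.1 CPM after vismodegib, 31.5, 44.9 and 40.5 CPM after AFL and 31.5, 27.6, 23.6 and 36.3 CPM in BCC, against 114, 143, 124, 94.0 and 123 CPM in healthy skin, and it fell relative to healthy skin in each induced group. Since whole skin was measured, fewer keratinocytes of a type and less RNA per keratinocyte cannot be told apart in any value below. The labelled tissue carried its markers: all 6 suprabasal and all 6 basal keratinocyte markers were detected in every group. Genes of the growing hair follicle split the mice. Their mean log2(CPM + 1) was 8.26 in mouse 6 of the vismodegib group and 8.27 in mouse 3 of the BCC group. It lay between 1.46 and 2.28 in the other vismodegib mice, 0.971 and 3.53 after AFL, 2.03 and 3.07 in the other BCC mice, and 4.36 and 9.20 in healthy mice.

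**Figure D1:**
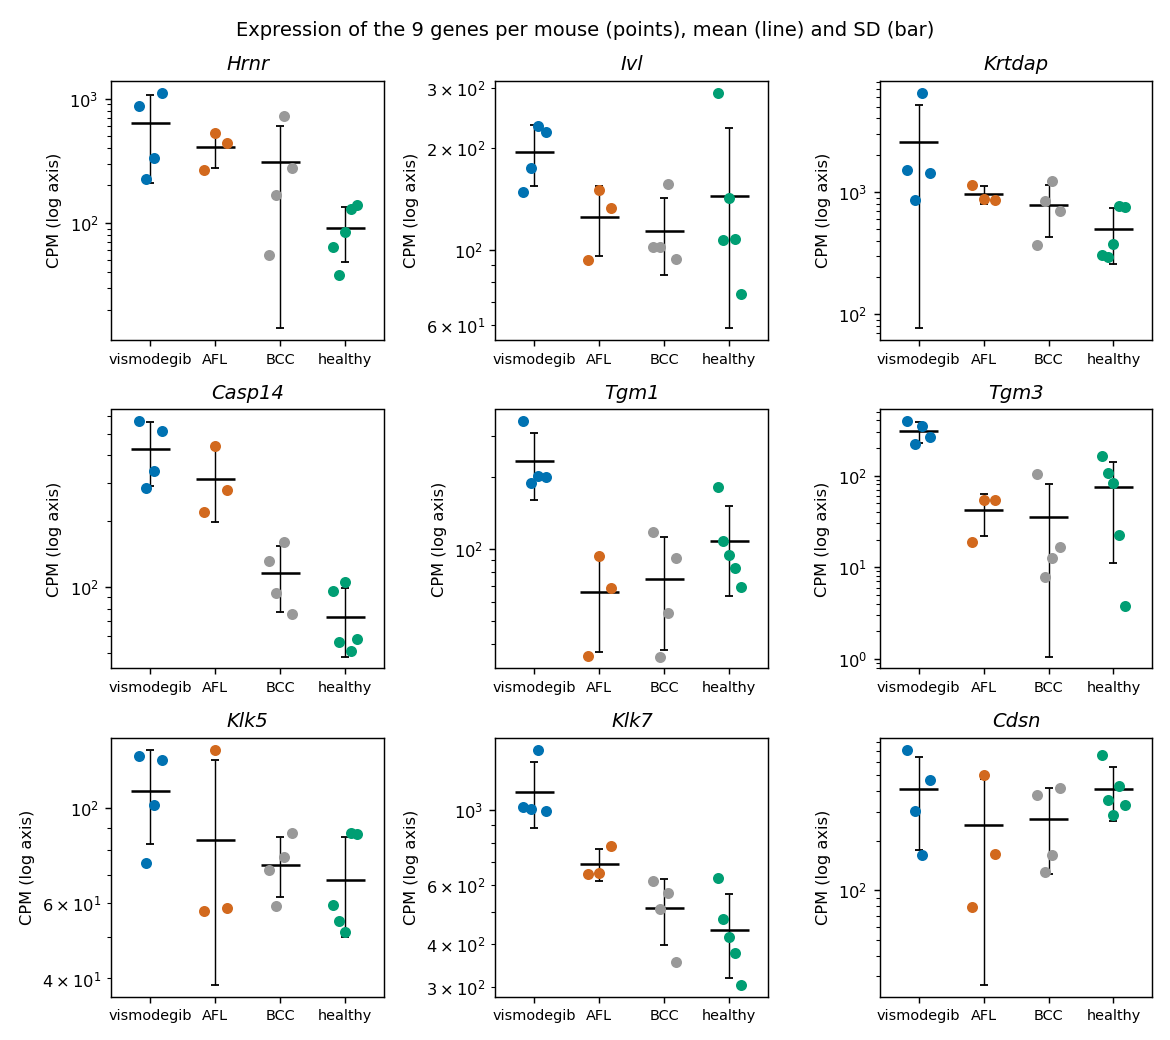
Expression of the 9 genes in CPM (log axes, 1 panel per gene) in vismodegib-treated BCC, AFL-treated BCC, BCC and healthy skin. Points are mice, lines are means and bars are SD; where the SD exceeds the mean (Krtdap after vismodegib and Tgm3 in BCC) the lower arm is cut short on the log axis. For Casp14, Tgm1, Tgm3 and Klk7 every vismodegib mouse lies above every BCC mouse.

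Vismodegib-treated skin held the most calls relative to BCC. Of the 9 genes, 5 rose relative to BCC skin, namely Casp14, Tgm1, Tgm3, Krtdap and Klk7, and none fell, against 17.0% of all genes called in either direction and 8.03% called higher. The other 4 had positive values that did not pass the test. The median log2 fold change of the 9 genes was 1.15, against 0.05 over all genes tested. After AFL only Casp14 rose relative to BCC skin, against 7.75% of all genes called and 6.10% called higher, and the median of the 9 was 0.27, against -0.04 over all genes. In BCC against healthy skin edgeR called 0 of the 9 genes, against 2.82% of all genes. Of the 9, 1 (Hrnr) had an unadjusted p under 0.05 and DESeq2 called 1, again Hrnr (log2 fold change 1.78, adjusted p = 0.0429). The BCC mice are the comparison group for both treatments, so the calls of the 2 treatments share those mice.

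**Figure D2:**
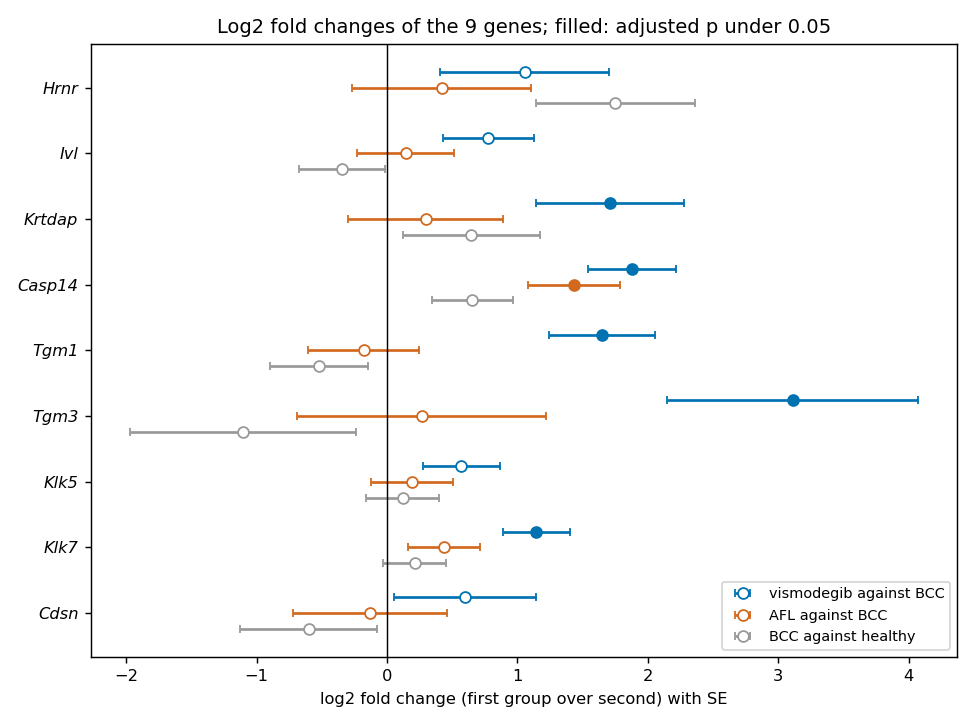
Log2 fold changes of the 9 genes with their SE for vismodegib against BCC, AFL against BCC and BCC against healthy skin. Filled points have an adjusted p under 0.05; 5 are filled for vismodegib, 1 for AFL and 0 for BCC.

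Hornerin is a filaggrin-like protein of keratohyalin granules that ends up in the cornified envelope. Hrnr had 875, 224, 334 and 1112 CPM after vismodegib, 266, 524 and 436 CPM after AFL and 55.0, 169, 721 and 278 CPM in BCC, against 63.9, 38.3, 84.1, 129 and 139 CPM in healthy skin. Every treated mouse of both groups was above every healthy mouse, while the BCC mice ranged from within the healthy values to far above them. Relative to healthy skin Hrnr rose after vismodegib (log2 fold change 2.81, SE 0.63, adjusted p = 0.01065) and after AFL (2.17, SE 0.65, adjusted p = 0.0467). The AFL call was lost in 7 of 8 fits that each left out 1 mouse (1.95 to 2.40) and kept without healthy mouse 16. In BCC against healthy skin its value was 1.75 (SE 0.61, adjusted p = 0.173). Vismodegib against BCC gave 1.06 (SE 0.65, adjusted p = 0.272) and AFL against BCC 0.42 (SE 0.69, adjusted p = 0.8001), so neither treated group was separated from BCC.
The lowest BCC value, 55.0 CPM, came from mouse 3, the BCC mouse with high hair genes, and the lowest vismodegib value, 224 CPM, from mouse 6, the vismodegib mouse with high hair genes. The 3 healthy mice with the highest hair level (8.40 to 9.20) had the 3 lowest healthy values. Hrnr was called in BCC against healthy skin without mouse 3 (log2 fold change 2.10, adjusted p = 0.0428) and without mice 3 and 6 (2.10, adjusted p = 0.0217). With the hair level as a covariate that value was 0.34 (adjusted p = 0.878), and relative to healthy skin Hrnr was 1.43 after vismodegib (adjusted p = 0.0693) and 0.50 after AFL (adjusted p = 0.772). Hair levels did not overlap between AFL mice (0.971 to 3.53) and healthy mice (4.36 to 9.20), so hair level and group cannot be told apart there. In the BCC and vismodegib groups only mice 3 and 6 lay within the healthy range. Scaled to keratinocyte structural genes, the values relative to healthy skin were 1.44 after vismodegib (adjusted p = 0.0593) and 1.62 after AFL (adjusted p = 0.132). Neither call was kept in these fits.

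Involucrin is an early envelope precursor that transglutaminases crosslink. Ivl had 148, 175, 233 and 222 CPM after vismodegib, 92.9, 150.0 and 133 CPM after AFL and 102, 102, 156 and 93.5 CPM in BCC, against 291, 107, 142, 107 and 73.7 CPM in healthy skin. The vismodegib mice were high but overlapped the BCC mouse at 156 CPM, and the healthy mice spanned the whole range. No comparison passed the test. The log2 fold change was 0.78 for vismodegib against BCC (SE 0.35, adjusted p = 0.133) and 0.43 for vismodegib against healthy skin (SE 0.33, adjusted p = 0.375), with a 95% interval of 0.02 to 1.54 for the first and -0.28 to 1.14 for the second.

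Krtdap encodes a small secreted protein of differentiating stratified epithelium. It had 1503, 861, 6486 and 1427 CPM after vismodegib, 1149, 872 and 869 CPM after AFL and 371, 848, 1226 and 694 CPM in BCC, against 306, 295, 374, 771 and 757 CPM in healthy skin. Mouse 9 of the vismodegib group stood far above all others, and the lowest vismodegib mouse lay within the range of the BCC mice. Both treated groups were above all healthy mice. Krtdap rose after vismodegib relative to BCC (log2 fold change 1.71, SE 0.57, adjusted p = 0.0492) and relative to healthy skin (2.36, SE 0.54, adjusted p = 0.0117). The call against BCC rested on mouse 9: without it the log2 fold change was 0.72 (adjusted p = 0.263). It was also lost when any 1 of the 4 BCC mice was left out (1.48 to 2.01). The value relative to healthy skin was 1.33 without mouse 9 and still passed the test. That call was lost with the hair level as a covariate (1.22, adjusted p = 0.0904) and scaled to keratinocyte structural genes (0.83, adjusted p = 0.139). AFL against healthy skin gave 0.94 (SE 0.56, adjusted p = 0.306). As with Hrnr, mouse 3 had the lowest Krtdap of the BCC group and mouse 6 the lowest of the vismodegib group.

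Caspase-14 is a protease made mainly in cornifying epidermis. Casp14 had 571, 284, 338 and 513 CPM after vismodegib, 219.7, 442 and 277 CPM after AFL and 132, 94.1, 161 and 75.5 CPM in BCC, against 95.8, 56.4, 106, 51.5 and 58.5 CPM in healthy skin. All 7 treated mice were above all 9 untreated ones. Casp14 averaged 426 ± 137 CPM after vismodegib and 116 ± 38.5 CPM in BCC (SD, n = 4 each), a log2 fold change of 1.88 (SE 0.34, adjusted p = 0.00226). After AFL it averaged 313 ± 115 CPM (n = 3), a log2 fold change of 1.43 relative to BCC (SE 0.35, adjusted p = 0.0183). Relative to healthy skin the log2 fold change was 2.53 after vismodegib (SE 0.32, adjusted p = 0.000121) and 2.09 after AFL (SE 0.33, adjusted p = 0.000561). AFL against vismodegib gave -0.45 (SE 0.36, adjusted p = 0.448), with a 95% interval of -1.22 to 0.33. The AFL call relative to BCC was lost when any of mouse 4 or 8 of the BCC group or mouse 7 or 11 of the AFL group was left out (log2 fold changes from 1.10 to 1.49). It was also lost with days since induction as a covariate (0.70, adjusted p = 0.354). The AFL mice were at 80 to 126 days after induction and the BCC mice at 130 to 144, without overlap. Time since induction and AFL treatment therefore cannot be told apart in this comparison.

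Transglutaminase 1 is bound to the keratinocyte membrane and starts the crosslinking of the envelope. Tgm1 had 344, 189, 204 and 202 CPM after vismodegib, 35.6, 93.9 and 68.8 CPM after AFL and 118, 35.3, 53.8 and 91.9 CPM in BCC, against 183, 108, 94.3, 83.5 and 69.4 CPM in healthy skin. Each vismodegib mouse was above every other mouse of the study, and the AFL mice lay within the range of the BCC mice. Tgm1 rose after vismodegib relative to BCC, to 235 ± 73.4 CPM against 74.9 ± 37.4 CPM in BCC (SD, n = 4 each; log2 fold change 1.65, SE 0.40, adjusted p = 0.0126). It was the 1 member of the 9 called in AFL against vismodegib, where it was lower after AFL (log2 fold change -1.83, SE 0.45, adjusted p = 0.0189), against 9.15% of all genes called and 2.46% called lower. That call was lost when mouse 1 of the vismodegib group, or mouse 2 or 11 of the AFL group, was left out (log2 fold changes between -1.83 and -1.48). Vismodegib against healthy skin gave 1.13 (SE 0.37, adjusted p = 0.0586), without overlap between mice, and passed the test without vismodegib mouse 6 or healthy mouse 10 (1.22 and 1.35). DESeq2 called Tgm1 higher in this comparison (1.12, adjusted p = 0.0266).

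Transglutaminase 3 is a soluble enzyme of the upper epidermis that is also made in the hair follicle. Tgm3 had 391, 219.8, 346 and 261 CPM after vismodegib, 18.8, 54.1 and 54.3 CPM after AFL and 104, 7.73, 12.5 and 16.5 CPM in BCC, against 164, 106, 82.4, 22.7 and 3.77 CPM in healthy skin. The vismodegib mice were above all other mice, and within BCC and healthy skin the high values came from the mice with high hair genes. The BCC mouse at 104 CPM was mouse 3. The healthy mice at 82.4 to 164 CPM were the 3 with the highest hair level. In vismodegib skin the high-hair mouse, mouse 6, had instead the lowest Tgm3. Tgm3 rose after vismodegib relative to BCC (log2 fold change 3.11, SE 0.96, adjusted p = 0.0386). The value was 4.76 (adjusted p = 0.00506) without mice 3 and 6, and 4.56 (adjusted p = 0.00231) with the hair level as a covariate. The call was lost in 6 of 8 fits that each left out 1 of the vismodegib or BCC mice and held without mouse 3 or mouse 6, while the log2 fold changes stayed between 2.78 and 4.63. Vismodegib against healthy skin gave 2.01 (SE 0.85, adjusted p = 0.124) and AFL against vismodegib -2.84 (SE 1.07, adjusted p = 0.105), both without overlap between mice. DESeq2 called Tgm3 in both comparisons (adjusted p = 0.0461 and 0.012).

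**Figure D3:**
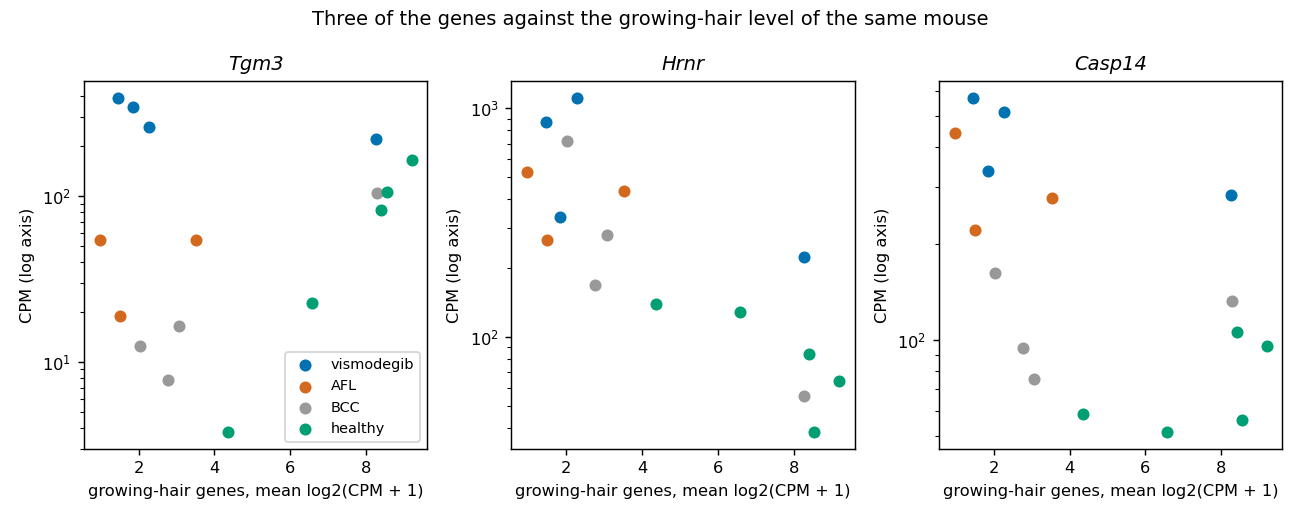
CPM of Tgm3, Hrnr and Casp14 (log axes) against the mean log2(CPM + 1) of growing-hair genes in the same mouse. Among BCC and healthy mice the high Tgm3 values sit at a hair level above 8 and the low Hrnr values sit there too; vismodegib mice are high in Tgm3 on both sides.

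Kallikrein 5 and kallikrein 7 are serine proteases of the cornified layer, and kallikrein 5 can activate kallikrein 7. Klk7 had 1017, 1008, 1506 and 994 CPM after vismodegib, 646, 653 and 779.8 CPM after AFL and 614, 508, 568 and 356 CPM in BCC, against 630.0, 477, 419.5, 377 and 303 CPM in healthy skin. The groups were ordered without overlap from vismodegib through AFL to the untreated mice, and BCC and healthy mice overlapped. Klk7 rose after vismodegib relative to BCC, to 1131 ± 250.1 CPM against 511 ± 113 CPM in BCC (SD, n = 4 each; log2 fold change 1.15, SE 0.26, adjusted p = 0.00811). Relative to healthy skin its log2 fold change was 1.36 after vismodegib (SE 0.24, adjusted p = 0.00222). AFL against BCC gave 0.44 (SE 0.27, adjusted p = 0.396) and did not pass.
Klk5 had 133, 74.6, 102 and 129.6 CPM after vismodegib, 57.4, 137 and 58.5 CPM after AFL and 71.6, 59.1, 77.0 and 87.6 CPM in BCC, against 59.3, 54.5, 51.4, 87.5 and 86.9 CPM in healthy skin. All groups overlapped. No comparison of Klk5 passed the test, and vismodegib against BCC gave 0.57 (SE 0.29, adjusted p = 0.19, 95% interval -0.07 to 1.21). Vismodegib against healthy skin gave 0.69 (SE 0.28, adjusted p = 0.104) and passed without vismodegib mouse 6 (0.84, adjusted p = 0.0482).

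Corneodesmosin is the junction protein that kallikreins cut. Cdsn had 713, 302, 165 and 470.0 CPM after vismodegib, 79.2, 500.3 and 167 CPM after AFL and 381, 128, 163 and 417 CPM in BCC, against 666, 353, 288, 430.2 and 328 CPM in healthy skin. All healthy mice lay at 288 CPM or more, and each induced group also held mice at 167 CPM or less. No comparison of Cdsn passed the test. Vismodegib against BCC gave 0.60 (SE 0.55, adjusted p = 0.483) and vismodegib against healthy skin -0.002 (SE 0.52, adjusted p = 0.998, 95% interval -1.13 to 1.12). The paired libraries of mouse 12 of the vismodegib group differed most in this gene, with 197 and 732 CPM, a 3.72-fold gap within 1 mouse. The largest gap of any other member within a mouse was 2.77-fold, for Tgm3 in mouse 16 of the healthy group.

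Relative to healthy skin, 4 of the 9 genes rose after vismodegib (Hrnr, Casp14, Krtdap and Klk7), against 11.6% of all genes called and 7.57% called higher. After AFL 2 rose (Hrnr and Casp14), against 9.24% of all genes called and 7.95% called higher. None of the 9 was called lower in either with TMM scaling. Scaled to keratinocyte structural genes, which moved the median of all genes to -1.30 for vismodegib and -0.41 for AFL, only Casp14 was called higher in each comparison. Lower calls then were Cdsn (-1.29, adjusted p = 0.0117) and Ivl (-0.88, adjusted p = 0.0369) after vismodegib and Tgm1 (-1.26, adjusted p = 0.0273) after AFL. Of all genes, 11868 were called on that scale for vismodegib, 286 of them higher, and 1767 for AFL, 685 of them higher. Neither Cdsn nor Ivl lay below the median of all genes for vismodegib, so their lower calls do not set them apart from other genes. Tgm1 lay below the median for AFL. Klk7 after vismodegib was 0.014 (adjusted p = 0.968) on that scale. The median of the 9 minus that of all genes was 1.34 for vismodegib with TMM and 1.32 on the keratinocyte scale, and for AFL it was 0.30 and 0.19. Without overlap between mice, 6 of the 9 were higher after vismodegib than in healthy skin, against 9.33% of all genes, and 4 of the 9 were higher after AFL, against 14.7% of all genes. Relative to BCC, 4 of the 9 were higher without overlap after vismodegib, against 7.63% of all genes, and 2 after AFL (Casp14 and Klk7), against 11.5% of all genes. In AFL against vismodegib 3 of the 9 were lower without overlap (Tgm1, Tgm3 and Klk7), against 9.24% of all genes. These comparisons share their healthy or BCC mice.

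The size of the vismodegib change depended on what it was measured against. In the same mice 4 of 13 keratinocyte structural genes also rose relative to BCC, keratin 14 (Krt14, log2 fold change 2.10, adjusted p = 0.00286), keratin 1 (Krt1, 2.33, adjusted p = 0.0174), stratifin (Sfn, 1.72, adjusted p = 0.0156) and desmoglein 3 (Dsg3, 1.12, adjusted p = 0.0433). Their summed level was 37318 to 64847 CPM after vismodegib, 17999 to 35786 CPM after AFL and 16564 to 28012 CPM in BCC, against 15728 to 22394 CPM in healthy skin. All 13 were detected in each group, and 8.03% of all genes were called higher after vismodegib relative to BCC. When libraries were scaled to the sum of these genes, the median of all genes moved to -1.16 for vismodegib against BCC, and the median of the 9 members was -0.13, still 1.03 above it. On that scale 4 of the 9 values were positive, 1 (Tgm3) was called higher, and Klk7 turned negative (-0.13). Scaled to the structural genes other than keratins, the median of all genes was -0.74 and that of the members 0.33, with 6 of 9 positive and 3 (Casp14, Tgm1 and Tgm3) called. Of all genes, 174 were called higher with keratins in the sum and 268 without them. Tgm3 was the 1 member called under all 3 scalings, at log2 fold changes of 3.11, 2.54 and 2.09.
On the same keratinocyte scale Casp14 after AFL was 0.96 relative to BCC (adjusted p = 0.208), with the median of all genes at -0.37. AFL against vismodegib, where all 9 members were negative in the TMM fit, had 4 of 9 negative when scaled to the keratinocyte structural genes and 3 of 9 when keratins were left out of them. The median of all genes was 0.85 and 0.84 in these fits, against -0.06 with TMM, and the median of the 9 members minus that of all genes was -0.65 with TMM, -0.67 and -0.65.

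**Figure D4:**
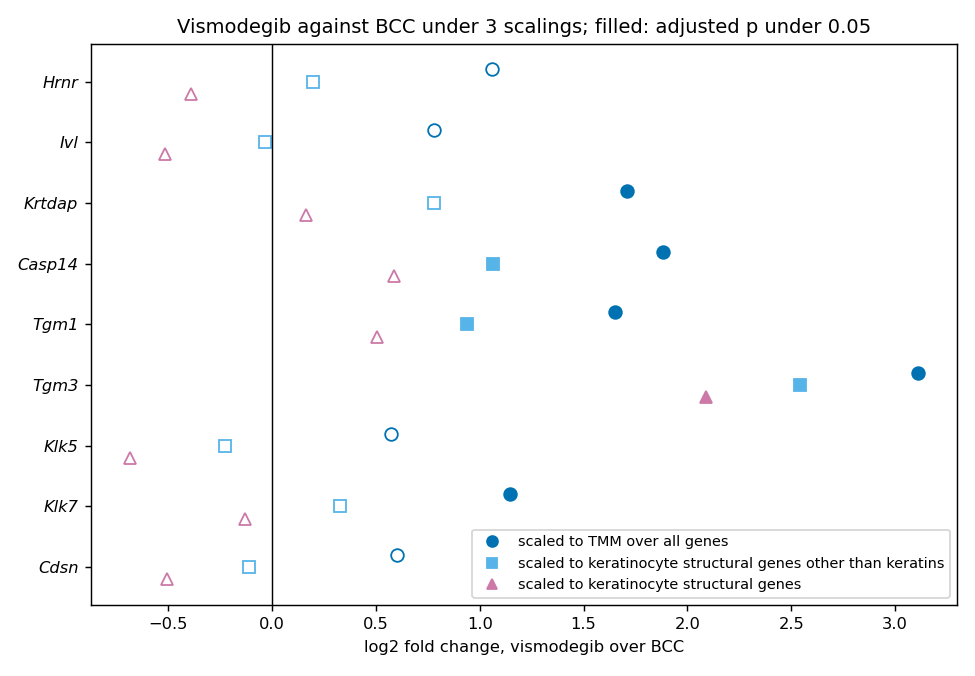
Log2 fold changes of the 9 genes for vismodegib against BCC under 3 scalings (TMM over all genes, keratinocyte structural genes other than keratins, and keratinocyte structural genes). Filled points have an adjusted p under 0.05; the 5 filled under TMM become 3 and then 1, and Tgm3 stays filled.

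Other cell markers moved with the treatments. Relative to BCC, 8.03% of all genes were called higher after vismodegib and 6.10% after AFL, and 17.0% and 7.75% in either direction. Wound keratinocyte genes (such as Krt6a, Krt16 and S100a8) rose in 8 of 9 tested after vismodegib relative to BCC and in 2 of 9 after AFL, with summed levels of 26311 to 120320 CPM after vismodegib, 6802 to 22988 CPM after AFL and 2953.5 to 9020.4 CPM in BCC, against 1725.7 to 5426.0 CPM in healthy skin. Mouse 9, highest in Krtdap and Klk7, was the highest in this sum. Neutrophil markers rose in 6 of 7 after vismodegib and 4 of 7 after AFL relative to BCC, with sums of 2429.2 to 49372 CPM after vismodegib, 175.45 to 2537.1 CPM after AFL and 38.667 to 147.52 CPM in BCC, against 19.871 to 37.250 CPM in healthy skin. The lists share S100a8 and S100a9, which keratinocytes also make, and the neutrophil marker Ly6g was at 0 in all BCC and healthy mice. The wound marker Stfa1 was also at 0 in all BCC and healthy mice. Macrophage markers rose in 3 of 8 after vismodegib and 8 of 8 after AFL relative to BCC, with sums of 490.01 to 2034.8 CPM after vismodegib, 3147.2 to 3889.1 CPM after AFL and 313.65 to 581.95 CPM in BCC, against 330.33 to 1014.8 CPM in healthy skin. Endothelial markers rose in 5 of 6 after AFL (222.56 to 487.16 CPM, against 94.887 to 158.50 CPM in BCC) and in 0 of 6 after vismodegib. Sebaceous gland markers rose in 4 of 8 after vismodegib (1538.6 to 8248.4 CPM, against 2251.3 to 3681.9 CPM in BCC). Of 7 fibroblast markers 2 fell after vismodegib relative to BCC, the collagen genes Col1a1 (-2.80, adjusted p = 0.00368) and Col1a2 (-2.25, adjusted p = 0.00597), and none rose. In AFL against vismodegib 3 of the 7 were higher, against 9.15% of all genes called in either direction. The fibroblast sums were 3303.6 to 9963.8 CPM after vismodegib, 21234 to 21871 CPM after AFL and 6645.5 to 22780 CPM in BCC, against 3562.1 to 11455 CPM in healthy skin. The part of these cells in the changes of the 9 genes was not tested.

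The neighbouring genes of the same programme moved unevenly. For the list counts that follow, 8.03% of all genes were called higher after vismodegib and 6.10% after AFL relative to BCC. In either direction 17.0% and 7.75% were called, and 2.82% in BCC against healthy skin. Genes of epidermal barrier lipids, which fill the space between cornified cells, rose most often of the 7 neighbouring lists: 14 of 23 were called higher after vismodegib relative to BCC and none lower, with a median log2 fold change of 1.21. Ceramide synthase 3 (Cers3), which makes the very long ceramides of the barrier, averaged 169 ± 22.6 CPM after vismodegib and 47.0 ± 14.8 CPM in BCC (log2 fold change 1.84, SE 0.26, adjusted p = 0.000496). Degs2, a ceramide hydroxylase, averaged 19.2 ± 5.39 CPM after vismodegib and 1.48 ± 0.621 CPM in BCC (3.70, SE 0.58, adjusted p = 0.00102). It was also the 1 gene of this list called after AFL, at 13.6 ± 8.76 CPM (3.20 relative to BCC, SE 0.59, adjusted p = 0.00254). The lipid count fell to 1 of 23 when libraries were scaled to keratinocyte structural genes, to 4 without the keratins and to 7 with days since induction as a covariate. Among all genes 174, 268 and 701 were called higher in these fits. With single mice left out the lipid count was 7 without BCC mouse 4, 8 without vismodegib mouse 1, 9 without vismodegib mouse 9 and 10 to 18 otherwise.

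Desquamation proteases and their inhibitors rose in 10 of 19 after vismodegib relative to BCC (median 1.45), while Serpina12, an inhibitor of the serpin family, fell (-1.70, adjusted p = 0.0256). Of the 9 kallikrein genes beside Klk5 and Klk7, 7 rose: Klk6, Klk8, Klk9, Klk11, Klk12, Klk13 and Klk14. Klk9 averaged 170.5 ± 77.9 CPM after vismodegib and 23.6 ± 3.44 CPM in BCC (2.85, SE 0.44, adjusted p = 0.000879), and it was the 1 kallikrein called in BCC against healthy skin (1.69, SE 0.39, adjusted p = 0.0261). After AFL 0 of these 9 kallikreins were called relative to BCC and 5 of 9 relative to healthy skin. Of all genes, 7.95% were called higher in AFL against healthy skin and 2.82% were called in BCC against healthy skin. The protease inhibitor Wfdc12 rose with both treatments, to 8.71 ± 5.50 CPM after vismodegib and 9.45 ± 3.39 CPM after AFL, against 0.579 ± 0.341 CPM in BCC (log2 fold changes 3.91 and 4.03, adjusted p = 0.000877 and 0.000639). Scaled to keratinocyte structural genes 4 of the 19 were higher and 3 lower, and without the keratins 5 were higher and 1 lower. Of all genes 10388 were called on the first scale, 174 of them higher, and 6317 on the second, 268 of them higher.

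**Figure D5:**
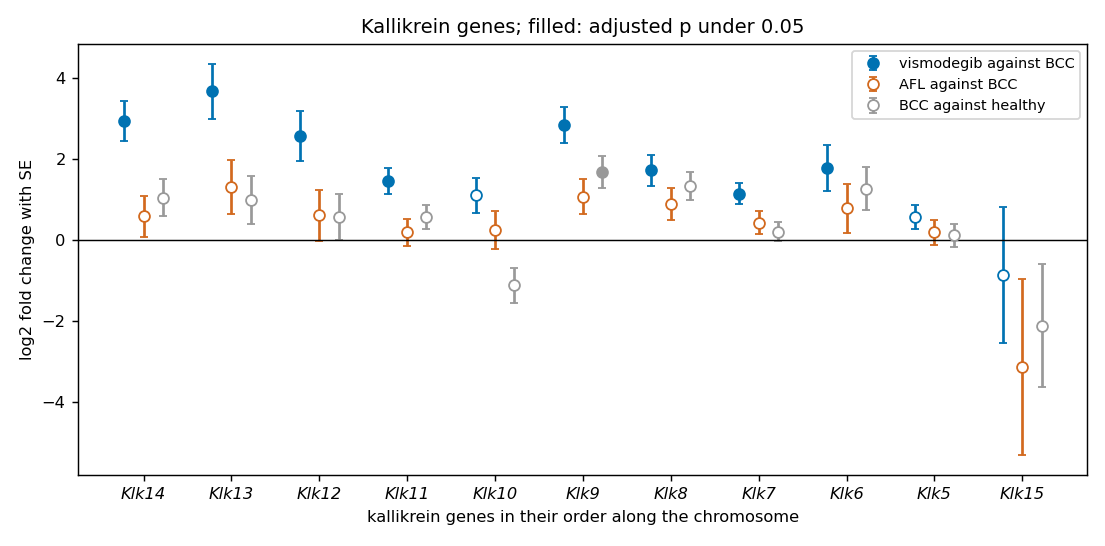
Log2 fold changes with SE of 11 kallikrein genes, in their RefSeq order (GRCm38.p6) along chromosome 7, for vismodegib against BCC, AFL against BCC and BCC against healthy skin. Filled points have an adjusted p under 0.05; Klk5, Klk10 and Klk15 are open in all 3 comparisons.

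Among 21 other cornified envelope and granule genes, 4 rose after vismodegib relative to BCC (Cnfn, Sprr1b, Rptn and Calm4) and 1 fell (Lce1m, a late envelope protein, -2.64, adjusted p = 0.0361). The median was 0.37. Cornifelin (Cnfn), an envelope component, averaged 529.7 ± 197 CPM after vismodegib and 93.3 ± 11.1 CPM in BCC (2.50, SE 0.45, adjusted p = 0.00211). Sprr1b, a small proline-rich protein also made in stressed epidermis, averaged 636 ± 192 CPM after vismodegib and 42.3 ± 22.5 CPM in BCC (3.91, SE 0.77, adjusted p = 0.0037). None of the 21 was called after AFL relative to BCC, nor in BCC relative to healthy skin.
Filaggrin-processing genes rose in 2 of 14 after vismodegib and 2 of 14 after AFL relative to BCC. Padi3 of this list and Tchh of the envelope list also belong to the growing-hair list. Sprr1b of the envelope list is counted among the wound keratinocyte genes too, and Ppl is in both the envelope and the desmosome list. Bleomycin hydrolase (Blmh), which acts late in filaggrin breakdown, averaged 701 ± 144 CPM after vismodegib and 195 ± 31.3 CPM in BCC (1.85, SE 0.22, adjusted p = 0.000192). Cathepsin L (Ctsl), a lysosomal protease that macrophages also make, rose to 1693 ± 274 CPM after AFL, against 296 ± 18.7 CPM in BCC (2.51, SE 0.24, adjusted p = 1.973e-05).

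Corneodesmosome and desmosome genes rose in 3 of 13 after vismodegib relative to BCC (Dsg1b, Dsg3 and Dsc1; 1 to 3 with single mice left out) and in 0 of 13 after AFL. Dsp, Jup, Pkp1, Perp, Dsc3 and Dsg3 of this list are also among the keratinocyte structural genes, so the Dsg3 call is counted in both. Dsg1b averaged 458 ± 219 CPM after vismodegib and 126 ± 69.6 CPM in BCC (1.87, SE 0.42, adjusted p = 0.00771). Dsg1c, which rose in BCC relative to healthy skin (1.83, SE 0.43, adjusted p = 0.0266), and Dsg1b are near-identical paralogs, so their counts are uncertain. The 6 other transglutaminases had 0 calls after vismodegib relative to BCC. Tgm5, an epidermal transglutaminase, rose in BCC, to 68.7 ± 18.7 CPM against 24.7 ± 7.30 CPM in healthy skin (1.47, SE 0.25, adjusted p = 0.00302). F13a1, a coagulation factor that macrophages also make, rose after AFL relative to BCC (1.79, SE 0.46, adjusted p = 0.0245). Among 22 transcription factors of differentiation 4 rose after vismodegib (Grhl3, Ovol1, Hopx and Ppard; 1 to 5 with single mice left out), with Grhl3 at 157 ± 80.3 CPM after vismodegib and 44.6 ± 19.8 CPM in BCC (1.82, SE 0.37, adjusted p = 0.00454). After AFL 2 of the 22 fell (Barx2 and Hes1), with Hes1, a Notch target, at 30.1 ± 3.30 CPM after AFL and 65.1 ± 15.0 CPM in BCC (-1.11, SE 0.28, adjusted p = 0.0207).

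Genes outside the set with the most similar pattern were ranked by Pearson r over the 16 mice with the mean standardised log2 CPM of the 9 members. They were Nkpd1 (r = 0.967), Cnfn (0.961), Trex2 (0.954), Gpr160 (0.941), Bicd2 (0.928), Ptk6 (0.926), Acox2 (0.926), Kcnk6 (0.922), Blmh (0.921) and Cers3 (0.918). The single genes most like each member differed: Asah2 for Hrnr (0.98), Cast for Ivl (0.87), Degs2 for Casp14 (0.946), Ppif for Tgm1 (0.968), Atp13a4 for Tgm3 (0.954), Maoa for Krtdap (0.956), Nccrp1 for Klk5 (0.932), Lce3c for Klk7 (0.969) and Tmem259 for Cdsn (0.973). The mice share group, hair level and tissue makeup, so these values describe likeness alone.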

How the data were processed

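The authors deposited RSEM expected counts per gene symbol, not normalised, from Bowtie2 and RSEM against GRCm39 per the submitters' processing notes. Which versions, annotation and strand setting were used is not given in the sources used here. Whether reads of overlapping antisense genes were kept apart is therefore not known. Of the values, 3.42% were not whole, and all were rounded. The paired libraries of mice 11, 12 and 16 were summed. They differed by far more than counting error (chi-square per degree of freedom 46.4, 101.7 and 150.1). Mouse 16 has 2 ages in the labels, 128 and 135 days, so one label of it may be in error.

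The low-count filter was filterByExpr by group (edgeR 4.0.16 in R 4.3.3). It kept 15760 genes and dropped 2761. One quasi-likelihood fit with TMM scaling held all 16 mice with group as its term (common dispersion 0.178). It gave 6 contrasts, each with Benjamini-Hochberg adjustment over every gene tested. Standard errors come from the log2 fold change and the F statistic, and intervals are at 95%. P-values measure the spread between these mice. The steps were checked on simulated counts.

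The genes and the neighbouring and marker lists were chosen with earlier results of these data known. From each neighbouring list the 2 genes with the smallest p among those called are described with values, and some other called genes by name. Alternatives were DESeq2 1.42.0, RLE scaling, other filters, all libraries as replicates, 1 library per mouse, a replicate block, hair level or days since induction as covariates, scaling to keratinocyte structural genes, and each mouse left out. Scaling without keratins and leaving out mice 3 and 6 together were chosen after seeing the data.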

Additional observations from a re-analysis of the deposited data

Results flagged for a closer look

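Of 27 combinations of a gene with a group of 4 or 5 mice, 5 held 1 mouse whose gap to the others exceeded Dixon's 95% critical value. Chance gives about 1 in 20 for independent, normally distributed values. The values here were CPM without a log, and the combinations share mice. All 5 flagged values were the highest of their group, so no excess over chance is read from this count. Tgm1 was 344.4 CPM in mouse 1 of the vismodegib group (189.1 to 203.7 CPM in the others). Mouse 9 of that group had 6486 CPM of Krtdap (860.5 to 1503 CPM in the others) and 1506 CPM of Klk7 (994.3 to 1017 CPM in the others), and it was also the highest of all mice in the wound keratinocyte sum. Within BCC, Ivl was 156.5 CPM in mouse 5 (93.54 to 101.6 CPM in the others), and Tgm3 was 104.2 CPM in mouse 3 (7.73 to 16.54 CPM in the others), the BCC mouse with high growing-hair genes.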

How the results depend on the processing

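With single mice left out, calls among all genes moved too. They numbered 1503 to 3418 in vismodegib against BCC, 597 to 1190 in AFL against BCC and 265 to 798 in BCC against healthy. Ranges were 951 to 3490 in vismodegib against healthy, 799 to 1665 in AFL against healthy and 732 to 1487 in AFL against vismodegib. Counts of the 9 genes called changed as follows. Vismodegib against BCC had 5 in the main test, 3 with no low-count filter, 1 scaled to keratinocyte structural genes, 3 with keratins left out of that sum, and 3 to 5 with single mice left out (3 without BCC mouse 4, 5 or 8 or vismodegib mouse 9). Casp14, Tgm1 and Klk7 were called in every leave-out. Krtdap was lost in 8 of 12 other settings and in 5 of 8 leave-outs, Tgm3 in 1 and in 6. AFL against BCC had 1, and 0 under the keratinocyte scaling and with days since induction, and 0 to 1 with single mice left out. BCC against healthy had 0, and 1 with DESeq2, without mice 3 and 6, and without mouse 3 (range 0 to 1). Vismodegib against healthy had 4 (all higher), 7 without mice 3 and 6, 4 to 6 in leave-outs, and 3 under the keratinocyte scaling (Casp14 higher, Cdsn and Ivl lower). With the hair level it had 4, with Hrnr and Krtdap lost and Tgm1 and Tgm3 gained. In the same comparison DESeq2 added Tgm1 and Tgm3, and all libraries as replicates added Tgm1 (1.13, adjusted p = 0.0208). AFL against healthy had 2 (both higher), 2 under the keratinocyte scaling (Casp14 higher, Tgm1 lower), 3 higher with keratins left out of that sum (Klk7 gained), 1 with the hair level, and 1 to 2 in leave-outs (the Hrnr call was lost in 7 of 8). AFL against vismodegib had 1, 2 with DESeq2, 2 with the replicate block, 3 with the hair level, 2 without mice 3 and 6, and 0 to 1 in leave-outs. Called values changed sign under the keratinocyte scaling for Klk7 in vismodegib against BCC (-0.13) and Ivl in vismodegib against healthy (-0.88, called lower there). These values lay above the medians of all genes on that scale, -1.16 against BCC and -1.30 against healthy. A further 64 of 1044 values that passed in neither fit changed sign, 27 of them under the keratinocyte scalings. The cause was not tested.

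Among all genes, calls in vismodegib against BCC numbered 2684, and 10388 and 6317 under the scalings with and without keratins and 1535 with days since induction. AFL against BCC had 1221, and 1977 with DESeq2, 2068 with libraries as replicates, 524 and 765 under the scalings and 715 with days. BCC against healthy had 445, and 911 with DESeq2, 244 under the keratinocyte scaling, 1046 with the hair level and 1337 without mice 3 and 6. AFL against healthy had 1456, and 2479 with DESeq2 and 3058 with libraries. Vismodegib against healthy had 1834, and 3136, 3425, 11868, 4843, 1040 with the block and 3985 without mice 3 and 6. AFL against vismodegib had 1442, and 2507, 2612, 4914 and 6238. The replicate block was run although same-numbered mice did not deviate together (21 pairs, median r -0.106, 8 over 0.1). It removed the Krtdap call in vismodegib against BCC (adjusted p = 0.0763) and added Tgm3 in AFL against vismodegib (-2.90, adjusted p = 0.0458). Days since induction and healthy skin could not be fitted together, as healthy mice have none, and leaving out mice 3 and 6 adds nothing to AFL against healthy skin. The lowest count of any of these genes in a mouse was 261, groups held 3 to 5 mice, and what limits the calls was not tested.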
